A study of Mus musculus with 10 samples.

Results

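The 9 genes described here belong to the tumor necrosis factor (TNF) superfamily and were taken by symbol from the table of gene counts. They are the ligands *Tnf*, *Tnfsf9*, *Tnfsf12*, *Tnfsf13*, *Tnfsf13b* and *Tnfsf14* and the receptors *Tnfrsf1a*, *Tnfrsf1b* and *Tnfrsf21*. Of the 17001 genes in the table, 7 of these 9 have a row, and *Tnfsf12* and *Tnfsf13* were not analysed here. Bulk RNA was sequenced from macrophages of hindlimb muscle of mice aged 4 weeks, sorted by the surface markers galectin-3 (gal-3), Folr2 and CD52. Skeletal muscle resident macrophages (SkMRMs, 3 libraries) came from wild-type (WT) mice, for which the methods list the strain C57BL/10. Gal-3+ macrophages (gal-3hi Folr2lo, 4 libraries) and monocyte-derived macrophages (MDMs, 3 libraries) came from dystrophic mdx mice (C57BL/10ScSn-Dmdmdx/J), which lack dystrophin. No treatment was given to any group, as far as the labels and methods say. The WT genotype was sequenced as SkMRMs and the mdx genotype as the other populations, so a difference from SkMRMs cannot be told apart from a difference between healthy and dystrophic muscle, whereas MDMs and gal-3+ macrophages share the mdx genotype. In bulk RNA, fewer cells that make a transcript and less of it per cell cannot be told apart.

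TNF superfamily ligands are mostly trimeric proteins made on the cell surface, and several are cut free by proteases. Their receptors are trimers too, and recruit TRAF adaptors or, where they carry a death domain, proteins that lead to NF-kappaB activity or to cell death. TNF is a main product of activated macrophages and has been studied in dystrophic muscle as an inflammatory cytokine. TNF binds TNFR1 (*Tnfrsf1a*), which carries a death domain and is made by nearly all cells, and TNFR2 (*Tnfrsf1b*), which lacks one and is found mainly on leukocytes and endothelium.

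The libraries held 22395027 to 75907638 recovered reads, with the highest depth in SkMRM library WT3. Of 8 macrophage markers, *Ptprc*, *Itgam*, *Adgre1*, *Csf1r*, *Cd68* and *Lyz2* were at 11264 or more normalized counts in every library. *Mertk* was at 3779 or more and *Fcgr1* at 2152 or more. The lists of SkMRM, gal-3+ and MDM markers had their highest median sum in the population of that name, though the sums of the gal-3+ list overlapped between gal-3+ macrophages and MDMs. These lists hold the genes of the sort markers (*Folr2*, *Lgals3* and *Cd52*) and other markers named in the paper, so this order was partly set by the sort. Of the 5 genes of the gal-3+ list, 1 was called lower in MDMs relative to gal-3+ macrophages. *Lgals3*, which encodes gal-3, had 40684 to 45826 in gal-3+ libraries and 40211 to 51278 in MDMs. Summed markers of other cells also differed between the populations. The 8 fibroblast and tenocyte markers summed to 400768 to 956097 normalized counts in SkMRMs, 45209 to 68069 in gal-3+ libraries and 58867 to 66119 in MDMs. Of these sums *Col1a1* made up 328887 to 840622, 20656 to 33495 and 24120 to 26979. *Col3a1* had 36028 to 47092, 22779 to 34260 and 32410 to 36815, and overlapped between SkMRMs and MDMs. Of the 8, 6 were called lower in gal-3+ macrophages and 5 in MDMs over SkMRMs, and 0 higher. The 8 muscle markers summed to 8370.2 to 12424, 5588 to 7569 and 1839.9 to 2171 in the same order. The 8 endothelial and pericyte markers summed to 4893 to 11651 in SkMRMs, 10741 to 14719.5 in gal-3+ macrophages and 3434 to 4279 in MDMs, and 6 of the 8 were called lower in MDMs relative to gal-3+ macrophages. The 6 neutrophil markers with a row summed to 482 to 625, 3079 to 3703 and 3929 to 4389, of which *Csf3r* made up 404 to 452, 2977 to 3495 and 3611 to 3998. The 8 dendritic cell markers summed to 2365 to 3430.4, 1232 to 1678 and 716 to 821. Of these 8, 3 were called lower in gal-3+ macrophages and 4 in MDMs over SkMRMs, and 0 higher. *Flt3*, which was not called, had its lowest mean in SkMRMs (18.6, 54.2 and 72.4). The T cell markers with a row summed to 1083 to 1429, 1570.5 to 2161 and 278 to 447, of which *Cd4* made up 911 to 1239.9, 1446 to 1999 and 171 to 300.4, while the defining T cell gene *Cd3e* had 0 to 21.0, 0 to 9.23 and 4.74 to 18.8. Of the T cell, NK cell and B cell lists, 5 of 8, 1 of 7 and 3 of 6 genes have a row. The median log2 difference over all genes was -0.11 for gal-3+ macrophages relative to SkMRMs, -0.17 for MDMs over SkMRMs and 0.03 for MDMs relative to gal-3+ macrophages. Scaling by the upper quartile moved the first 2 of these medians to -0.23 and -0.32.

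The stretches of sequence that follow are those that bear on the most abundant ligand, on the ligand that differed between all populations, and on the pair of TNF receptors. The AU-rich element in the 3′ untranslated region of *Tnf* is the site through which proteins such as tristetraprolin shorten the life of this mRNA. Its densest 30 bases hold 4 overlapping copies of the 9-letter core TTATTTATT, shown in capitals, and lie on mm10 in GENCODE M21 transcript Tnf-201.
*Tnf* AU-rich site, chr17:35199681-35199710, minus strand: ttaTTATTTATTATTTATTTATTATTTATT
The untranslated region of 764 bases holds 5 copies of that core, a number reached or passed by 20 of 13384 genes of the table with such a region (0.149%), while 8.05% have at least 1 copy. *Tnfsf13b* had 1 copy, and *Tnfsf9*, *Tnfsf14*, *Tnfrsf1a*, *Tnfrsf1b* and *Tnfrsf21* had 0. The shorter core TATTTAT occurred 8 times in *Tnf*, 2 times in *Tnfsf9* and once each in *Tnfsf13b* and *Tnfsf14*. At least 1 copy of it was present in 30.1% of genes.

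The 250 bases before the RefSeq transcription start (build GRCm38.p6) were searched on both strands. The letters were GGNNNTTCC for NF-kappaB. For AP-1 they were TGANTCA. For PU.1 they were GAGGAAGT, and for the TATA box TATAAA. RefSeq promoters were matched for 6 of the 7 genes, all but *Tnfsf9*. Matches are in capitals, and none of those shown overlaps another.
*Tnf* promoter, chr17:35202008-35202257, minus strand: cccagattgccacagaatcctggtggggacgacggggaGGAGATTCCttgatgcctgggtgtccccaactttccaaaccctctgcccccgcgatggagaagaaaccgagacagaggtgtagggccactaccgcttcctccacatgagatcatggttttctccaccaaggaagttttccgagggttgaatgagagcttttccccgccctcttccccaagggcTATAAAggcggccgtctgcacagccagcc
*Tnfsf14* promoter, chr17:57194182-57194431, minus strand: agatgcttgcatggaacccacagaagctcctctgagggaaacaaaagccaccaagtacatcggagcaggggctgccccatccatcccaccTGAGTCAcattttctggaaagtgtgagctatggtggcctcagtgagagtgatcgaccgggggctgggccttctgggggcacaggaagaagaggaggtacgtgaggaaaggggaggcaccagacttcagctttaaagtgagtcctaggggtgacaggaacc
*Tnfrsf1a* promoter, chr6:125349473-125349722, plus strand: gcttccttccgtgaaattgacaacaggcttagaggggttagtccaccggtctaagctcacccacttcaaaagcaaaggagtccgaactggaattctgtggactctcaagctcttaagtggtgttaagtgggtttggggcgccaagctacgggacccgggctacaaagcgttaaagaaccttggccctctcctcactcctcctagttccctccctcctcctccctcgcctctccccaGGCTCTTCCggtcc
*Tnfrsf1b* promoter, chr4:145246871-145247120, minus strand: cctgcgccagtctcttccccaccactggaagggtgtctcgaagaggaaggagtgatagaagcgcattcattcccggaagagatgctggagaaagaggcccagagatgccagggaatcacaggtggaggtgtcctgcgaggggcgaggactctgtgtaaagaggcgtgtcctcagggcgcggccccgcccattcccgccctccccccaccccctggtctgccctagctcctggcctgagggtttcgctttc
In *Tnf* the TATAAA begins 29 bases before the start, and 12.4% of 32851 promoters of that length hold one. A GGNNNTTCC lies 212 bases before the start of *Tnf* and 14 bases before that of *Tnfrsf1a*, and 15.7% of promoters hold one. These letters were chosen after a stricter 10-letter form, with 1 more G in front, had been searched first and was found in 0 of the 7 windows of these genes and in 4.65% of all promoters. The TGAGTCA of *Tnfsf14* begins 160 bases before the start, and 6.75% of promoters hold a TGANTCA. Another TGAGTCA lies in the second of 2 promoters listed for *Tnfsf13b*. RefSeq and GENCODE M21 place some starts differently. The *Tnfrsf1a* window lies inside the GENCODE gene, which begins at 125349362. The second *Tnfsf13b* window, from 10006383 to 10006632, spans the GENCODE start of that gene at 10006467. GAGGAAGT, held by 2.44% of promoters, was in none of these windows, and *Tnfrsf1b* and *Tnfrsf21* had no match to any of the 4, which says nothing about sites elsewhere. The GC content was 62.8% for *Tnfrsf1b* and 55.6% for *Tnfrsf1a*, against a median of 52.4% over all promoters.

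In dystrophic muscle both populations held more of the ligand *Tnfsf9* and of the receptor *Tnfrsf1b* than WT SkMRMs, while *Tnf* itself differed by less than 2-fold between any pair of populations. *Tnfsf14* was highest in MDMs, and *Tnfrsf21* was highest in gal-3+ macrophages. A gene was called where it differed by 2-fold or more with an adjusted p below 0.01 (limma, Benjamini-Hochberg over 17001 genes). In gal-3+ macrophages over SkMRMs, 4 of the 7 genes were called higher (*Tnfsf9*, *Tnfsf14*, *Tnfrsf1b* and *Tnfrsf21*) and 1 lower (*Tnfsf13b*), with a median log2 fold change of 1.10, where 17.3% of all genes were called, 5.34% higher and 11.9% lower. Without SkMRM library WT3, 3 of the 7 were called, and likewise without gal-3+ library mdx3. In MDMs over SkMRMs, 3 of 7 were called higher (*Tnfsf9*, *Tnfsf14* and *Tnfrsf1b*) and 0 lower, with a median of 0.83, against 26.8% of all genes called, 8.81% higher and 18% lower. In MDMs relative to gal-3+ macrophages 1 of 7 was called (*Tnfsf14*, higher), with a median of 0.29, against 11.5% of all genes, 3.32% higher and 8.19% lower. The libraries did not overlap for 6 of 7, 6 of 7 and 3 of 7 genes in these comparisons, where 52.2%, 64.4% and 42.4% of all genes did not. With any fold at an adjusted p below 0.01, 7, 5 and 3 of the 7 genes passed, against 35.8%, 45.9% and 27.5% of all genes.

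**Figure D1:**
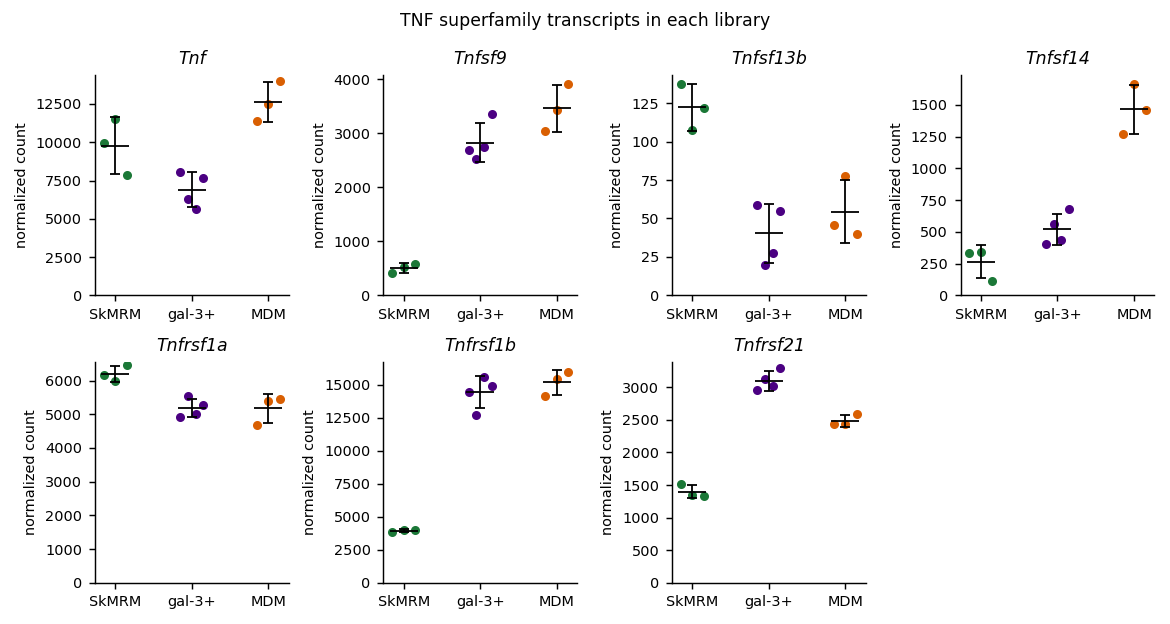
Normalized counts of the 7 measured ligands and receptors (y axes from 0) in each library of SkMRMs (n = 3), gal-3+ macrophages (n = 4) and MDMs (n = 3), with each point a library, the bar the mean and the whiskers the SD. *Tnfsf9* and *Tnfrsf1b* stand higher in every mdx library than in every SkMRM library, and *Tnf* is lowest in gal-3+ macrophages.

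*Tnf*, which encodes the cytokine TNF, lies on chromosome 17 from 35199381 to 35202007 (mm10, minus strand). It had 9953, 11544 and 7846 normalized counts in SkMRM libraries WT1, WT2 and WT3. In gal-3+ macrophages the counts were 8092, 6276, 5619.9 and 7643 (libraries mdx1, mdx3, mdx4, mdx5). They reached 11402, 12489 and 14004 in MDM libraries mdx1, mdx4 and mdx5. Every gal-3+ library was below every MDM library, while SkMRM library WT3 fell within the gal-3+ range and WT2 within the MDM range. The log2 fold change was 0.88 ± 0.13 (SE, adjusted p = 5.0e-05) for MDMs relative to gal-3+ macrophages, -0.50 ± 0.13 (SE, adjusted p = 0.0045) for gal-3+ macrophages relative to SkMRMs and 0.38 ± 0.14 (SE, adjusted p = 0.027) for MDMs over SkMRMs, none of which reached 2-fold. Mean levels were 9781 ± 1855, 6908 ± 1155 and 12632 ± 1307 (SD) in the 3 populations. *Tnf* was the most abundant of the 7 transcripts per kb of exon in the WT resident cells as well as in the mdx populations.

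*Tnfsf9*, the ligand 4-1BBL of the receptor 4-1BB, which is known for co-stimulation of T cells, lies on chromosome 17 from 57105325 to 57107757 (plus strand). Its normalized counts were 409, 534 and 580.0 in the 3 SkMRM libraries, 2689, 2529, 2739 and 3355 in the 4 gal-3+ libraries and 3045, 3434 and 3911 in the 3 MDM libraries, each in the order given for *Tnf*. All 7 mdx libraries were above all 3 WT libraries, while gal-3+ library mdx5 lay within the MDM range. The log2 fold change over SkMRMs was 2.48 ± 0.13 (SE, adjusted p = 5.5e-11) in gal-3+ macrophages and 2.77 ± 0.14 (SE, adjusted p = 2.0e-11) in MDMs. Between MDMs and gal-3+ macrophages it was 0.29 ± 0.13 (SE, adjusted p = 0.075), which did not pass. The exons of *Tnfsf9* overlap those of the antisense gene *Gm11110*, which had 5.85 to 48.5 normalized counts, and whether the counting used strand was not given in the sources used here.

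*Tnfsf14*, or LIGHT, binds the lymphotoxin-β receptor and HVEM, and is found on activated T cells and myeloid cells. It lies on chromosome 17 from 57189492 to 57194177 (minus strand). SkMRM libraries had 337, 344 and 114 normalized counts, gal-3+ libraries 405, 559, 439 and 678 and MDM libraries 1274, 1661 and 1457. The 3 populations did not overlap, with SkMRM library WT3 far below the other SkMRM libraries. The log2 fold change in MDMs was 2.62 ± 0.31 (SE, adjusted p = 1.7e-06) over SkMRMs and 1.51 ± 0.29 (SE, adjusted p = 0.00057) over gal-3+ macrophages, though the latter call was lost without a variance trend (adjusted p = 0.018). In gal-3+ macrophages over SkMRMs it was 1.10 ± 0.29 (SE, adjusted p = 0.0050). That call was lost without WT3 (log2 fold change 0.58, adjusted p = 0.015), without gal-3+ library mdx3 (log2 fold change 1.06, adjusted p = 0.013) and without gal-3+ library mdx5 (log2 fold change 0.97, adjusted p = 0.020), and also with upper quartile scaling, DESeq2, no variance trend or the 2 populations alone (log2 fold change 0.98 to 1.10, adjusted p = 0.011 to 0.046).

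*Tnfsf13b*, which encodes BAFF, a survival factor of B cells, was the lowest of the 4 chosen ligands with a row and lies on chromosome 8 from 10006467 to 10039072 (plus strand). It had 138, 107 and 122 normalized counts in SkMRMs, 59.1, 20.0, 27.7 and 54.6 in gal-3+ macrophages and 45.9, 77.8 and 39.9 in MDMs. The SkMRM libraries were above every library of the other populations, which overlapped each other. Relative to SkMRMs, the log2 difference was -1.70 ± 0.44 (SE, adjusted p = 0.0042) in gal-3+ macrophages and -1.20 ± 0.47 (SE, adjusted p = 0.037) in MDMs, where it did not pass. The first call rested on few reads, 15 to 76 in a gal-3+ library, and was lost without any single SkMRM library or without gal-3+ library mdx3 or mdx4 (log2 fold change -1.79 to -1.42, adjusted p = 0.010 to 0.022). Fibroblast and tenocyte markers were also higher in SkMRMs (the sums are given above), and their part in the level of *Tnfsf13b* was not tested.

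*Tnfrsf1a*, or TNFR1, lies on chromosome 6 from 125349362 to 125362484 (plus strand) and varied least among the receptors. Its normalized counts were 6156, 5996 and 6467 in SkMRMs, 4921, 5531, 5005 and 5282 in gal-3+ libraries and 4686, 5393 and 5463 in MDMs. Every mdx library was below every SkMRM library by a small margin, and the mdx populations overlapped. The log2 fold change over SkMRMs was -0.26 ± 0.07 (SE, adjusted p = 0.0087) in gal-3+ macrophages and -0.26 ± 0.08 (SE, adjusted p = 0.0098) in MDMs, both far under 2-fold, and -0.00 ± 0.07 (SE, adjusted p = 0.98) between MDMs and gal-3+ macrophages.

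*Tnfrsf1b*, or TNFR2, lies on chromosome 4 from 145213463 to 145246870 (minus strand) and rose in both dystrophic populations. It had 3849, 4018 and 3999 normalized counts in SkMRMs, 14506, 12739, 15602 and 14949.6 in gal-3+ macrophages and 14140.1, 15491 and 15959 in MDMs. All mdx libraries were more than 3 times any SkMRM library, and gal-3+ macrophages and MDMs overlapped. Relative to SkMRMs, the log2 difference was 1.86 ± 0.08 (SE, adjusted p = 3.0e-12) in gal-3+ macrophages and 1.94 ± 0.08 (SE, adjusted p = 3.0e-12) in MDMs, and between the mdx populations it was 0.07 ± 0.08 (SE, adjusted p = 0.46). Scaled by exon length (normalized counts per kb of exon in GENCODE M21), the *Tnfrsf1b* to *Tnfrsf1a* ratio was 0.42 to 0.455 in SkMRMs, 1.56 to 2.12 in gal-3+ macrophages and 1.95 to 2.05 in MDMs. *Tnfrsf1a* was the more abundant transcript of the pair in each SkMRM library and *Tnfrsf1b* in each mdx library. The summed endothelial and pericyte markers had their highest median in gal-3+ macrophages and their lowest in MDMs. The summed neutrophil markers, mostly *Csf3r*, were higher in both mdx populations, though only 1 of the 6 with a row was called higher in gal-3+ macrophages over SkMRMs. The part of these markers' cells in the level of *Tnfrsf1b* was not tested.

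**Figure D2:**
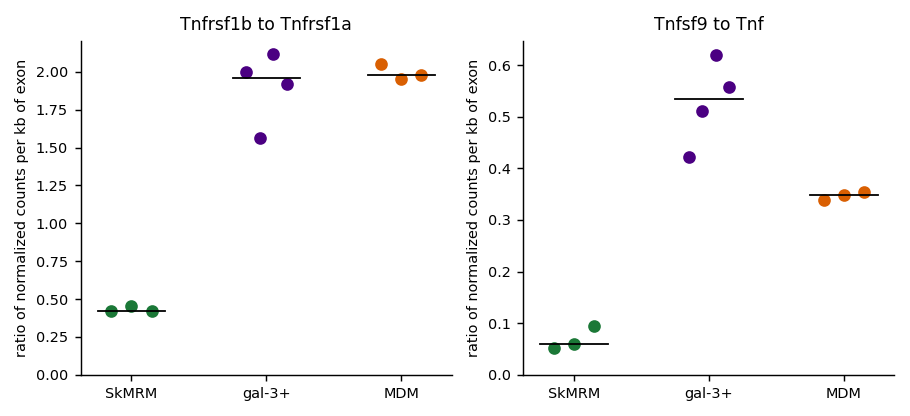
Ratio of normalized counts per kb of exon for *Tnfrsf1b* to *Tnfrsf1a* (left) and *Tnfsf9* to *Tnf* (right), with each point a library and each line the median of SkMRMs (n = 3), gal-3+ macrophages (n = 4) or MDMs (n = 3). The receptor ratio is below 1 in SkMRMs (median 0.424) and near 2 in gal-3+ macrophages (1.96) and MDMs (1.98), and the ligand ratio is highest in gal-3+ macrophages (0.535).

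*Tnfrsf21*, or DR6, a death domain receptor best known from neurons and T cells, lies on chromosome 17 from 43016555 to 43089189 (plus strand). SkMRM libraries had 1519, 1354 and 1324 normalized counts, gal-3+ libraries 2957, 3121, 3017 and 3291 and MDM libraries 2439.7, 2429 and 2585. No 2 populations overlapped, with gal-3+ macrophages highest and MDMs between them and SkMRMs. The log2 fold change over SkMRMs was 1.15 ± 0.08 (SE, adjusted p = 3.2e-09) in gal-3+ macrophages and 0.83 ± 0.09 (SE, adjusted p = 2.8e-07) in MDMs, the latter under 2-fold. In MDMs relative to gal-3+ macrophages it was -0.32 ± 0.08 (SE, adjusted p = 0.0045), also under 2-fold.

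**Figure D3:**
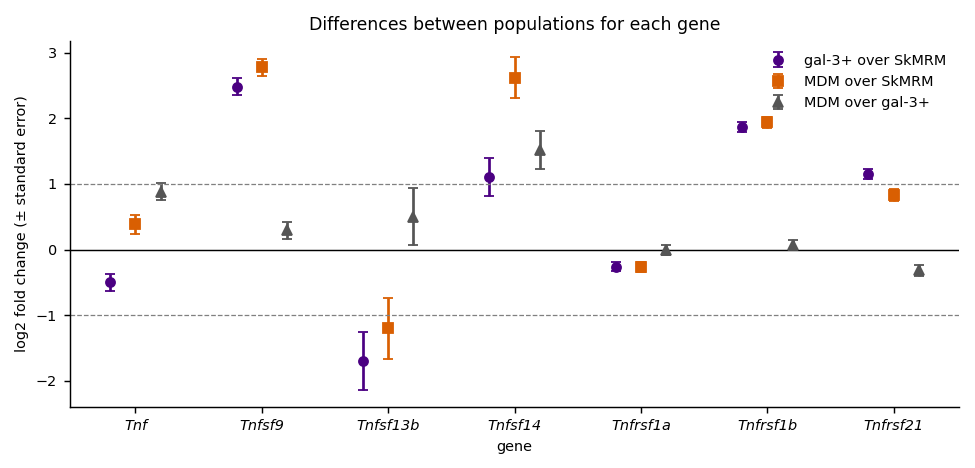
Log2 fold change (y axis, points with standard error bars) of the 7 genes for gal-3+ macrophages relative to SkMRMs, MDMs over SkMRMs and MDMs relative to gal-3+ macrophages, with dashed lines at a 2-fold difference. *Tnfsf9*, *Tnfsf14* and *Tnfrsf1b* lie above the upper line in both comparisons with SkMRMs, and *Tnf* and *Tnfrsf1a* lie between the lines in all 3 comparisons.

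Levels were ordered per kb of exon within each population. *Tnf* was first in each population, at 5968 ± 1132 normalized counts per kb (SD) in SkMRMs, 4215 ± 704 in gal-3+ libraries and 7707 ± 798 in MDMs. In SkMRMs *Tnfrsf1a* followed at 2395 ± 92.5 and *Tnfrsf1b* at 1036 ± 24.2, then *Tnfsf9* at 394 ± 68.5 and *Tnfrsf21* at 340.4 ± 25.5, whose libraries overlapped. In gal-3+ macrophages the order after *Tnf* was *Tnfrsf1b* at 3784 ± 321, which overlapped *Tnf*, then *Tnfsf9* at 2192 ± 281 and *Tnfrsf1a* at 2001 ± 107, which overlapped too. In MDMs the neighbours *Tnf*, *Tnfrsf1b* (3980.3 ± 247), *Tnfsf9* (2685 ± 336) and *Tnfrsf1a* (1999.6 ± 166) did not overlap. *Tnfsf14* passed *Tnfrsf21* in MDMs alone, at 793 ± 105 against 605 ± 21.3 per kb. *Tnfsf13b* was last in each population, at 17.8 ± 2.22, 5.87 ± 2.82 and 7.94 ± 2.97 per kb.

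Of 12 further ligands, 7 have a row and *Lta*, *Ltb*, *Cd40lg*, *Cd70* and *Tnfsf11* were not analysed here. Among the 7, 0 were called higher and 1 lower in gal-3+ macrophages over SkMRMs (median -0.41), 0 and 2 in MDMs over SkMRMs (-1.17), and 0 in MDMs relative to gal-3+ macrophages (-0.76). The called shares of 14.3%, 28.6% and 0% stood against 17.3%, 26.8% and 11.5% of all genes. *Tnfsf10*, or TRAIL, which triggers death receptors, had 398, 208 and 381 normalized counts in SkMRMs, 269, 173, 245 and 279 in gal-3+ libraries and 138, 167 and 119 in MDMs, and fell in MDMs over SkMRMs by 1.17 on the log2 scale (adjusted p = 0.0014), a call lost without WT1 (log2 fold change -1.01, adjusted p = 0.012). *Eda*, a ligand of skin appendage development, had 96.8, 69.9 and 89.2 in SkMRMs and 7.91, 5.10 and 21.1 in MDMs and was called lower in MDMs. *Tnfsf18*, or GITRL, had 31.5, 24.8 and 35.4 in SkMRMs, where all 3 libraries stood above the others. It had 3 reads in all over the 4 gal-3+ libraries, and was called lower there. Every row of the table reached 10 normalized counts in at least 3 libraries, and *Tnfsf18* did so in SkMRMs alone. Its row could therefore be called only lower over SkMRMs, and this call makes up the 14.3% given above.

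Of 25 further receptors, 23 have a row (*Cd27* and *Edar* were not analysed here), of which 2 were called higher and 3 lower in gal-3+ macrophages over SkMRMs (median -0.10), 3 higher and 5 lower in MDMs over SkMRMs (0.29), and 1 higher and 2 lower in MDMs relative to gal-3+ macrophages (0.24). These were 21.7%, 34.8% and 13% of the list, where 17.3%, 26.8% and 11.5% of all genes were called. *Tnfrsf25*, or DR3, a death domain receptor found on T cells, had 185, 252 and 234 normalized counts in SkMRMs, 3.89, 14.7, 14.4 and 12.7 in gal-3+ macrophages and 0, 2.55 and 0 in MDMs, and was called lower in each of the 3 comparisons, the last of which was lost without MDM library mdx1 or mdx5 (adjusted p = 0.012 and 0.013). *Tnfrsf8*, or CD30, ran the other way, at 9.33, 23.3 and 15.9 in SkMRMs, 34.2, 108, 41.0 and 59.5 in gal-3+ macrophages and 129.7, 209 and 110.4 in MDMs, a log2 difference of 3.17 ± 0.51 (SE, adjusted p = 5.1e-05) for MDMs over SkMRMs. *Tnfrsf4*, or OX40, was called lower in gal-3+ macrophages than SkMRMs, at 12.4, 0, 3.08 and 6.82 against 38.5, 24.1 and 37.9, a call lost without any single SkMRM library or gal-3+ library mdx4 (adjusted p = 0.013 to 0.027). The call of *Tnfrsf8* in gal-3+ macrophages was lost without WT1, WT3, mdx3 or mdx5 (adjusted p = 0.012 to 0.030).

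*Cd40*, which receives T cell help, fell in MDMs over SkMRMs, from 1274 ± 220.5 to 634 ± 117 normalized counts (SD, n = 3 each), just past 2-fold (adjusted p = 2.9e-05), and under it without WT1, WT3 or MDM library mdx1 (log2 fold change -0.94 to -0.87) and with TMM scaling or edgeR (both -0.98). Gal-3+ libraries, at 773, 912, 991 and 879, also lay below SkMRMs for *Cd40*, which was not called there. *Fas*, a death receptor, was higher in MDMs (444, 554 and 520.2) than in gal-3+ macrophages (267, 233, 253 and 228), a log2 difference of 1.04 ± 0.17 (SE, adjusted p = 0.00015) and 0.97 without MDM library mdx4. SkMRM libraries, at 405, 427 and 284, lay between them, and *Fas* was not called against SkMRMs. *Ngfr*, the p75 neurotrophin receptor, was called lower in MDMs than in SkMRMs and gal-3+ macrophages, at 44.3, 11.5 and 31.7 against 117, 83.9 and 135 and 99.5, 89.4, 53.4 and 87.7, and the second call was lost in 5 of the fits that left out 1 library (gal-3+ mdx1, mdx3 or mdx5, or MDM mdx4 or mdx5). *Tnfrsf19*, a receptor of the embryo and of stem cells, had 65.3, 67.6 and 58.1 in SkMRMs and 3.16, 2.55 and 52.8 in MDMs, where library mdx5 stood near SkMRMs, and its call was lost without WT1, WT2, WT3, MDM mdx1 or MDM mdx4 (adjusted p = 0.020 to 0.052) and with edgeR (0.11) or DESeq2 (0.074). T cell, NK cell and B cell genes with a row were low in every library apart from *Cd4*, *Cd2* and *Cd79b*, while the summed fibroblast and tenocyte and the summed muscle markers were highest in SkMRMs, and their part in these low transcripts was not tested.

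The partners of the main genes were measured where they have a row. *Tnfrsf9*, or 4-1BB, the receptor of *Tnfsf9*, was near the floor, at 4.67, 1.55 and 2.53 normalized counts in SkMRMs, 11.7, 14.7, 12.3 and 1.95 in gal-3+ macrophages and 28.5, 54.9 and 18.8 in MDMs. It was called higher in MDMs over SkMRMs (adjusted p = 0.0042), a call lost without WT2, WT3, MDM mdx1 or MDM mdx4 (adjusted p = 0.012 to 0.027). Of the receptors of *Tnfsf14*, *Ltbr* had 1664 ± 91.3, 2062 ± 265 and 2027 ± 192 (SD) in the 3 populations and was not called, while *Tnfrsf14*, or HVEM, had 351, 284 and 380.1 in SkMRMs, 582, 564, 762 and 610.3 in gal-3+ macrophages and 679.9, 879 and 683 in MDMs. *Tnfrsf14* was called in MDMs over SkMRMs, at a log2 difference of 1.14 ± 0.16 (SE, adjusted p = 1.3e-05) that was 0.99 with upper quartile scaling, and in gal-3+ macrophages over SkMRMs had 0.89 ± 0.15 (SE, adjusted p = 0.00013), under 2-fold. Both populations of mdx libraries lay above SkMRMs for that gene.

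BAFF, the product of *Tnfsf13b*, has 3 receptors. *Tnfrsf13b*, or TACI, had 610.0, 498 and 781 normalized counts in SkMRMs, 1431, 1139, 1528 and 1197 in gal-3+ libraries and 1278, 1084 and 946 in MDMs, with no overlap between SkMRMs and the others. Its log2 fold change in gal-3+ macrophages over SkMRMs was 1.08 ± 0.15 (SE, adjusted p = 1.6e-05) and was under 2-fold without WT2 (0.93) and with upper quartile scaling (0.97), and in MDMs it was 0.82 ± 0.16 (SE, adjusted p = 0.00035). *Tnfrsf17*, or BCMA, had 113, 127 and 160.3 in SkMRMs, 5.44, 6.67, 2.05 and 11.7 in gal-3+ macrophages and 2 reads in all over the 3 MDM libraries. It was called lower in both. *Tnfrsf17* reached the 10 normalized counts in 3 libraries that every row has only through SkMRMs. Its row could therefore be called only lower over SkMRMs. *Tnfrsf13c*, the BAFF receptor, had 11.7, 10.9 and 12.6 in SkMRMs and 6 and 3 reads in all over gal-3+ and MDM libraries, and was not called. The ligand *Tnfsf13b* and *Tnfrsf17* were called lower in gal-3+ macrophages, where *Tnfrsf13b* was called higher.

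**Figure D4:**
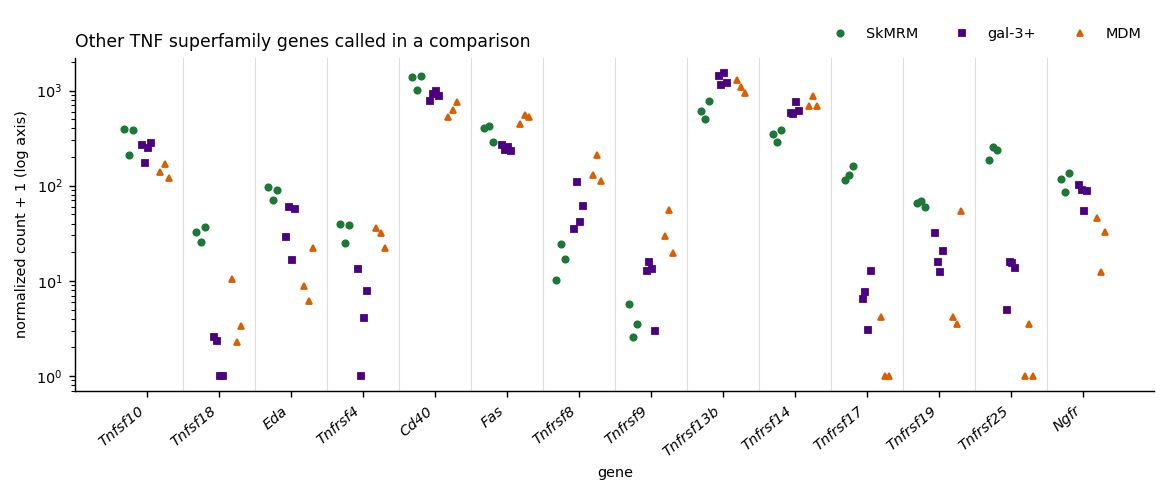
Normalized count plus 1 (log axis) of the other TNF superfamily genes that were called in at least 1 comparison, with each point a library of SkMRMs (n = 3), gal-3+ macrophages (n = 4) or MDMs (n = 3). *Tnfsf18*, *Tnfrsf17* and *Tnfrsf25* stand near the floor in gal-3+ macrophages or MDMs, and *Tnfrsf8* rises from SkMRMs to MDMs.

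Of 36 genes of receptor signaling, 2 were called higher and 1 lower in gal-3+ macrophages over SkMRMs (median 0.27), 7 higher and 0 lower in MDMs over SkMRMs (0.55), and 2 higher and 1 lower in MDMs relative to gal-3+ macrophages (0.28). Of all genes 17.3%, 26.8% and 11.5% were called, and of this list 8.33%, 19.4% and 8.33%. *Traf1*, an adaptor that binds TNFR2 and is itself induced by NF-kappaB, was called higher in each comparison, with 266, 238 and 260.2 normalized counts in SkMRMs, 505, 563, 561 and 689 in gal-3+ libraries and 2011, 2568 and 2984 in MDMs. Its log2 fold change was 1.18 ± 0.14 (SE, adjusted p = 3.2e-06) in gal-3+ macrophages over SkMRMs and 2.11 ± 0.14 (SE, adjusted p = 1.1e-08) in MDMs relative to gal-3+ macrophages. *Tnfaip3*, which encodes the ubiquitin-editing inhibitor A20, rose from 31748 ± 1330.0 in SkMRMs to 81588 ± 2195 in gal-3+ libraries and 76610.5 ± 7134 in MDMs (SD). Its partner *Tnip1* rose from 2514 ± 383 in SkMRMs to 8289.6 ± 1116 in MDMs. In gal-3+ libraries *Tnip1* had 5048, 5009, 4535 and 4971, also above SkMRMs, but was not called.

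*Traf3*, which restrains the non-canonical NF-kappaB pathway, had a log2 difference of 1.52 ± 0.09 (SE, adjusted p = 5.2e-10) for MDMs over SkMRMs. Gal-3+ libraries, at 1835, 1735, 1645 and 1726, also lay above SkMRMs (1026, 840 and 976) for *Traf3*, which was not called there. Of the genes of necroptosis, *Mlkl*, the executioner of this cell death, fell in gal-3+ macrophages from 1341 ± 160.4 to 582 ± 94.3. MDM libraries, at 645, 708 and 755, also lay below SkMRMs (1446, 1420 and 1156) for *Mlkl*, which was not called there. *Ripk3*, the kinase that acts on MLKL, was higher in MDMs at 1279, 1354 and 1768 than in gal-3+ macrophages at 677 on average. The log2 difference was 1.10 ± 0.12 (SE, adjusted p = 3.2e-06) and 0.96 without MDM library mdx5. *Ripk3* was also called higher in MDMs over SkMRMs (713, 653 and 812), at a log2 difference of 1.005. That was under 2-fold without WT1, WT2 or MDM library mdx5 (0.86 to 0.99) and with upper quartile scaling (0.85). *Traf4*, an adaptor also of epithelial cells, fell in MDMs relative to gal-3+ macrophages by 1.11 on the log2 scale (adjusted p = 0.0016).

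The list for the processing of ligands and receptors has 13 genes, which include the inhibitor *Timp3* and protease partners such as *Rhbdf1*. Of the 13, 1 was called higher and 3 lower in gal-3+ macrophages over SkMRMs (median 0.24), 3 and 4 in MDMs over SkMRMs (-0.17), and 0 and 2 in MDMs relative to gal-3+ macrophages (0.00). That was 30.8%, 53.8% and 15.4% of the list, beside 17.3%, 26.8% and 11.5% of all genes. *Adam10*, a sheddase, rose from 3647 ± 10.8 in SkMRMs to 8314 ± 386 in gal-3+ libraries and 8869.6 ± 585 in MDMs. *Adam17*, which encodes the TNF-converting enzyme and was named after its values were seen, had 3645, 2917 and 3460.0, 6155, 5927, 6815 and 6430.1 and 7624, 7517 and 8136 in the libraries of the 3 populations, a log2 difference of 0.93 ± 0.08 (SE, adjusted p = 7.6e-08) in gal-3+ macrophages and 1.22 ± 0.09 (SE, adjusted p = 3.3e-09) in MDMs over SkMRMs. *Rhbdf1*, which encodes a partner of that enzyme, iRhom1, fell from 718 ± 131 to 216 ± 55.2 and 93.6 ± 21.8. Its relative *Rhbdf2*, or iRhom2, was above *Rhbdf1* in every library and was not called in any comparison. *Rhbdf2* had 3447, 3737 and 3308 in SkMRMs, 2360, 2459, 2041 and 2190 in gal-3+ libraries and 2579, 3099 and 3276 in MDMs. It was named after its values were seen. The proprotein convertases *Pcsk5* and *Pcsk6* fell too, with log2 differences of -2.08 and -2.37 in gal-3+ macrophages and -2.35 and -2.04 in MDMs. *Timp3*, the tissue inhibitor of the TNF-converting enzyme, fell to 638 ± 155 in MDMs from 2811 ± 740.4 in SkMRMs and 1576 ± 258 in gal-3+ macrophages. *Rhbdf1*, *Pcsk5*, *Pcsk6* and *Timp3* are also made by stromal cells, and the summed fibroblast and tenocyte markers were highest in SkMRMs, and the part of those cells was not tested.

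Of 15 regulators of *Tnf* mRNA and of its synthesis, 1 was called higher and 1 lower in gal-3+ macrophages over SkMRMs (median 0.10), 2 and 1 in MDMs over SkMRMs (0.28), and 0 and 1 in MDMs relative to gal-3+ macrophages (0.18). Calls made up 13.3%, 20% and 6.67% of the list and 17.3%, 26.8% and 11.5% of all genes. *Mapkapk3*, a kinase downstream of p38, rose from 573 ± 66.1 in SkMRMs to 2191 ± 112 in gal-3+ libraries and 2884 ± 265 in MDMs. *Nfatc2*, a calcium-regulated transcription factor, fell in the same order, with 7618, 7968 and 8035, 2492, 2421, 2961 and 2701 and 1415, 1190.3 and 929.9 in the libraries, and was called lower in each comparison. The RNase gene *Zc3h12a*, or regnase-1, was called higher in MDMs over SkMRMs at 1.18 ± 0.07 (SE, adjusted p = 3.3e-10). Gal-3+ libraries, at 7224, 6996, 7142 and 7438, also lay above SkMRMs (3555, 3720 and 3530) for *Zc3h12a*, which was not called there. *Zfp36*, which encodes tristetraprolin, the protein that binds the AU-rich site of *Tnf* shown above, had 79626 ± 11057 in SkMRMs, 77577 ± 2606 in gal-3+ libraries and 56589 ± 2951 in MDMs and was not called. It was named after its values were seen, and its log2 difference was -0.03 ± 0.09 (SE, adjusted p = 0.81) in gal-3+ macrophages over SkMRMs, -0.48 ± 0.10 (SE, adjusted p = 0.00037) in MDMs over SkMRMs and -0.46 ± 0.09 (SE, adjusted p = 0.00070) in MDMs relative to gal-3+ macrophages.

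Of 24 genes that TNF is known to induce, 10 were called higher and 5 lower in gal-3+ macrophages over SkMRMs (median 0.47), 9 higher and 3 lower in MDMs over SkMRMs (0.90), and 10 higher and 1 lower in MDMs relative to gal-3+ macrophages (0.54). The shares called were 62.5%, 50% and 45.8%, against 17.3%, 26.8% and 11.5% over all genes. *Ptgs2*, which encodes cyclooxygenase-2, had 920.3, 805 and 772 normalized counts in SkMRMs, 15851, 15287, 15798 and 19341 in gal-3+ libraries and 31050.3, 36849 and 46909.9 in MDMs. *Tnfaip2* rose from 1131 ± 89.0 in SkMRMs to 10080.4 ± 917 in gal-3+ macrophages and 9679.9 ± 1172 in MDMs. *Ccl2*, the monocyte chemokine, was, like *Tnf*, lowest in gal-3+ macrophages, at 20176, 21685 and 26704 in SkMRMs, 8968, 6604, 7867 and 9540.4 in gal-3+ macrophages and 17962, 25886 and 28783 in MDMs, a log2 difference of -1.47 ± 0.15 (SE, adjusted p = 3.1e-07) for gal-3+ macrophages relative to SkMRMs and 1.54 ± 0.15 (SE, adjusted p = 4.9e-07) for MDMs relative to gal-3+ macrophages.

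*Il6*, an inflammatory cytokine, and *Sod2*, the mitochondrial superoxide dismutase, were higher in MDMs than gal-3+ macrophages, with log2 differences of 1.38 ± 0.17 (SE, adjusted p = 7.1e-06) and 1.29 ± 0.08 (SE, adjusted p = 6.0e-09). *Il1b* rose over SkMRMs by log2 differences of 7.39 in gal-3+ macrophages and 8.63 in MDMs. *Mmp9*, gelatinase B, went the other way, by -4.80 and -3.01, and was higher in MDMs than gal-3+ macrophages by 1.79, a call lost without MDM library mdx5 (log2 fold change 1.56, adjusted p = 0.013). These genes also answer to signals other than TNF.

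**Figure D5:**
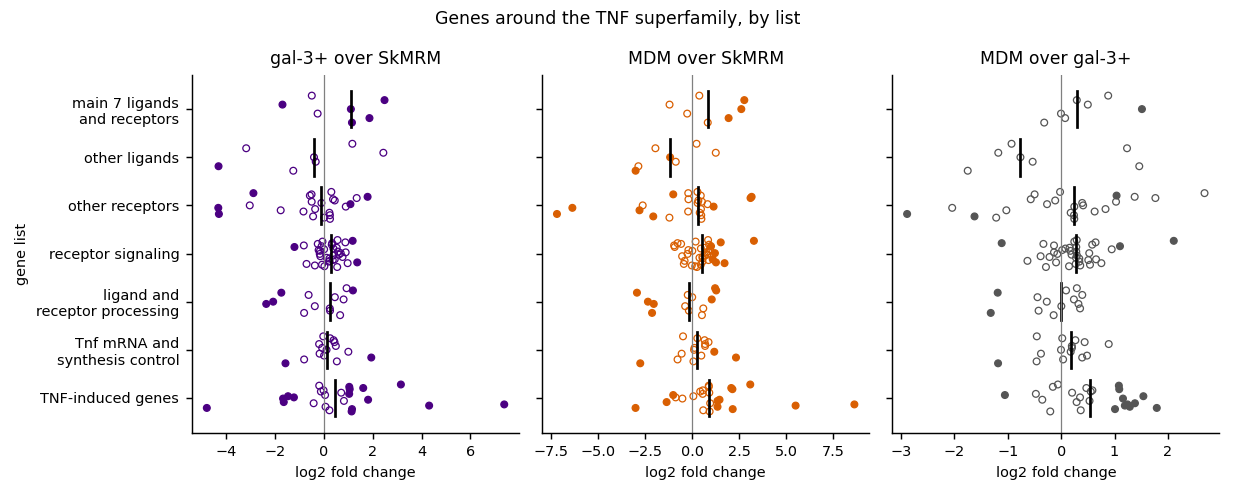
Log2 fold change (x axes, which differ between panels) of each gene of the main 7 and of 6 lists around the TNF superfamily, for gal-3+ macrophages relative to SkMRMs, MDMs over SkMRMs and MDMs relative to gal-3+ macrophages. Filled points were called and open points were not, and black lines are list medians, which run from -0.41 for other ligands to 1.10 for the main 7 in the first panel.

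The genes most like each of the 7 across the 10 libraries were found by the Pearson correlation of log2(normalized count + 1), given as a description. The libraries share 3 populations, and much of each value reflects their means. *Tnf* ran most like *Cgnl1* (r = 0.979), *Eif4e* (0.949) and *Zkscan1* (0.944), each lowest in gal-3+ macrophages. *Tnfsf9* ran most like *Cd14* (0.996), the co-receptor for endotoxin, *Oaz1* (0.996) and *Tyrobp* (0.995), which encodes the adaptor DAP12. *Tnfrsf1b* ran most like *Ifngr2* (0.998), a chain of the interferon-γ receptor, *AB124611* (0.998) and *Lgals3* (0.998), which encodes the gal-3 used in the sort. *Tnfrsf21* ran with *Dhrs9* (0.993), *Itgb5* (0.993) and the lysosomal protease gene *Ctss* (0.992), and *Tnfsf14* with *Gm9845* (0.985), *Klhl2* (0.974) and *Dgkg* (0.972). The genes nearest to *Tnfsf13b* (*Adamtsl2*, *1700054O19Rik* and *Gm8801*, 0.943 to 0.947) and *Tnfrsf1a* (*A930016O22Rik*, *Gm44313* and *4933431E20Rik*, 0.970 to 0.975) were all highest in SkMRMs and had means under 120 normalized counts in each population. Among the 7 themselves, *Tnfsf9* and *Tnfrsf1b* were the closest pair (0.991), and *Tnfsf9* and *Tnf* had a correlation of -0.033.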

How the data were processed

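Macrophages were sorted from hindlimb muscle into 3 SkMRM, 4 gal-3+ and 3 MDM samples. Per the methods, the authors made libraries from 2 ng of total RNA with a stranded low-input kit and sequenced paired ends. They aligned reads to mm10 with TopHat 2.0.14, obtained gene counts from HTSeq 1.99.2 and divided these by DESeq2 1.28.1 size factors. The deposited signal is therefore a normalized count per gene. A further 18 deposited columns hold the authors' own comparisons and were not used. Dividing by each library's step returned whole reads for 100% of values (tolerance 0.001), at 22395027 to 75907638 reads per library. The SD given with a mean is the spread between libraries, and the SE given with a log2 fold change comes from limma.

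SkMRM columns were matched to samples by number. The gal-3+ and MDM column numbers (mdx1 to mdx5) differ from the titles, and those columns were matched to their population. Libraries are separate biological replicates by their titles. Libraries of the same mdx number did not deviate together (correlations -0.0279, 0.0102 and 0.0253), so they were not treated as paired.

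Log2(normalized count + 1), on which changes of low genes are understated, was modeled in limma 3.58.1 (R 4.3.3) over all 10 libraries (7 residual degrees of freedom, trended variance). P-values were adjusted by the Benjamini-Hochberg method over 17001 genes, and a gene was called past 2-fold with an adjusted p below 0.01, as in the methods. A minimum of 10 in at least 3 libraries removed 0 genes, so every row already met it. Rows that met it only through SkMRMs could be called only lower over SkMRMs, and such calls count in the shares given. Whole reads were also tested with edgeR 4.0.16 and DESeq2 1.42.0, which called 997 genes higher and 1794 lower, and 959 higher and 2246 lower, in gal-3+ macrophages over SkMRMs. Also tried were a pseudocount of 0.5 or 5, a minimum of 50 or none, TMM and upper quartile scaling, no variance trend, the 2 populations alone, other thresholds, each library left out, and the mdx number as a block.

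Genes named are the 9 chosen, other ligands and receptors called or binding the 9, up to 4 called genes with the largest change per list and comparison, and the 3 most correlated with each. The genes and lists were chosen with earlier results of these data known. Lengths and positions are from GENCODE M21 on mm10, in which 16335 of the genes matched 1 entry. The authors' annotation was another release.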

Additional observations from a re-analysis of the deposited data

How the results depend on the processing

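The number of the 7 genes called in gal-3+ macrophages over SkMRMs was 3 to 5 when 1 library was left out, against 5 with every library, and was 3 without SkMRM library WT3 and without gal-3+ library mdx3. With any fold at an adjusted p under 0.01 it was 7, where 35.8% of all genes were called. In MDMs over SkMRMs it was 3 in each of those fits and 5 with any fold (45.9% of all genes). In MDMs over gal-3+ macrophages it was 1 in each of those fits, 0 with no variance trend and 3 with any fold (27.5% of all genes). The log2 fold change of *Tnfrsf1a* in MDMs over gal-3+ macrophages (-0.003) changed sign to 0.0001 with DESeq2, 0.0286 with the replicate block, and -0.043 to 0.0677 when 1 library was left out, never past the threshold. The block by mdx number, in which gal-3+ library mdx3 has no MDM partner, changed no call among the 7 genes. Its fold changes equal those of the fit without that library (0.0286 in both for *Tnfrsf1a*), so it is not a separate check of them. The numbers are not shown to pair the libraries. Of 89 other calls for genes of the lists, 62 held in every alternative, 27 were lost in at least 1 and 0 changed sign. With any fold, the called counts for the other ligands, other receptors, signaling genes, processing genes, *Tnf* regulators and TNF-induced genes were 1, 8, 18, 12, 9 and 17 in gal-3+ macrophages over SkMRMs (35.8% of all genes), 2, 9, 24, 10, 12 and 22 in MDMs over SkMRMs (45.9%) and 0, 3, 13, 6, 8 and 17 in MDMs over gal-3+ macrophages (27.5%). Limits are the 3 or 4 libraries per population, the confounding of genotype with population, and low counts for *Tnfsf13b* and several receptors.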
